A study of Mus musculus with 6 samples.

Results

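The genes described here handle iron in the cell: uptake, storage, export and recovery from heme. They were taken from a list of 10 mouse gene symbols (Tfrc, Tf, Fth1, Ftl1, Slc40a1, Slc11a2, Hmox1, Steap3, Ncoa4 and Hamp), matched exactly to the 26167 genes of the deposited tables. Of the 10, 9 were found. Tf was not matched, because the mouse symbol of transferrin is Trf, and Trf is described with the other iron genes below. Hamp was under the filter on low counts (at least 10 reads in at least 3 tumors), so 8 of the 10 were tested.

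The samples were tumors of Hepa1-6, a mouse hepatoma cell line, which the study grew under the skin of female C57BL/6J mice of 6 to 8 weeks; the labels call the tissue Hep1-6 tumor. The control group had 3 tumors, numbered 1, 3 and 4. The Sora-treated group had 3 tumors, numbered 2, 3 and 4, from mice that received sorafenib (Sora), an inhibitor of several kinases, at 10 mg/kg ip on days 9, 11, 13 and 15. Whole tumors were sequenced, so the libraries hold RNA of the hepatoma cells and of the host cells around them. The labels do not say that each tumor came from its own mouse, so the p-values measure the spread between these samples. Each tumor had 31073830 to 36205814 counted reads. The count table used here lacks Sora-treated tumor 4, and its counts were recovered from its FPKM (reads scaled by gene length and by the total of the library), which gave whole numbers in 100% of genes. Along the first principal component (43.1% of the variance), scores ran from -20.5 to -11.1 in the controls, with Sora-treated tumors 2 and 4 at 22.5 and 21.1 and Sora-treated tumor 3 nearer to the controls at 2.69.

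Iron reaches most cells bound to transferrin, which the transferrin receptor takes into endosomes. Inside the cell iron is used for heme and iron-sulfur clusters, held in ferritin, or released through ferroportin, and heme oxygenase returns the iron of broken-down heme. When iron is scarce, iron regulatory proteins bind a hairpin in certain mRNAs, the iron responsive element. In the 5′ UTR it then blocks translation, as in the ferritin chains and ferroportin, and in the 3′ UTR of Tfrc it protects the mRNA from decay. The liver hormone hepcidin, the product of Hamp, removes ferroportin from the cell surface, a step on the protein that mRNA levels do not show.

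The elements are shown because they separate the members by the kind of control that can act on their mRNA. The annotated transcripts (GENCODE M21, build GRCm38) were searched for a bulged C, 5 bases, the loop CAGTGN and 5 bases that pair with the first 5. Such elements were found in the UTRs of 5 of the 9 members and 8 in number, 4 of them in the 3′ UTR of Tfrc, of which the first is given. All have every pair except that of Slc11a2, which has 1 mispair. Elements with every pair occur in 0.151% of genes with an annotated 5′ UTR and in 0.615% of those with a 3′ UTR, and with 1 mispair allowed in 1.0% and 4.16%. Each sequence is 30 bases, 5′ to 3′ on the strand of the transcript, with the loop in capitals. The positions are chr19:9982732-9982761 (plus strand) for Fth1, chr7:45459778-45459807 (minus) for Ftl1, chr1:45925464-45925493 (minus) for Slc40a1, chr16:32631219-32631248 (plus) for Tfrc and chr15:100395152-100395181 (minus) for Slc11a2.
Fth1, 5′ UTR: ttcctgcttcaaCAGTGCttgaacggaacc
Ftl1, 5′ UTR: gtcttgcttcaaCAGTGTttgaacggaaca
Slc40a1, 5′ UTR: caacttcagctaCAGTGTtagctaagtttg
Tfrc, 3′ UTR: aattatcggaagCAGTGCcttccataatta
Slc11a2, 3′ UTR: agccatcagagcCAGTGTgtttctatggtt

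Of the 8 members tested, Slc40a1 was down-regulated in Sora-treated tumors and the other 7 did not pass an adjusted p of 0.05 (edgeR's quasi-likelihood test, Benjamini-Hochberg adjustment over 16513 genes). Over all genes tested, 3.29% passed, 1.34% as lower and 1.94% as higher in Sora-treated tumors. The log2 fold change (Sora-treated over control) was below 0 for 8 of the 8 members, against 50.1% of all genes, and its median was -0.15, against 0.0 over all genes. Slc11a2 and Hmox1 were nearest to 0, at -0.05 and -0.06. Trf, whose listed symbol Tf was not matched, had 0.08 and is not among the 8. At an unadjusted p under 0.05 there were 3 members, Slc40a1, Fth1 and Ncoa4, all lower, against 17.2% of all genes in either direction and 8.69% on that side. The FPKM of Slc40a1 and Fth1 did not overlap between the groups, and such a separation with lower values after Sora was found in 11.2% of all genes tested (21.7% in either direction). DESeq2 called 2 members, Slc40a1 and Fth1, where it called 7.46% of its genes, 3.6% as lower. Without Sora-treated tumor 4, edgeR called 0 members and 0.0306% of all genes (2 members and 11.9% of all genes at an unadjusted p under 0.05), and DESeq2 called 1, Fth1, and 3.17% of all genes.

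Expression differed far more between members than between groups. By FPKM, which corrects for gene length, the order over the 6 tumors was Fth1, Ftl1, Hmox1, Tfrc, Slc40a1, Ncoa4, Steap3, Slc11a2 and Hamp, with means of 2038 FPKM for Fth1, 92.9 FPKM for Hmox1 and 5.14 FPKM for Slc11a2. The ranges of neighbors overlapped for Fth1 and Ftl1, for Tfrc and Slc40a1, for Slc40a1 and Ncoa4, and for Steap3 and Slc11a2. Fth1 was above Ftl1 in 6 of 6 tumors, and Tfrc was above Slc40a1 in 3 of 6. Fth1 ranked between 10 and 25 among the 26167 genes of each tumor, and both ferritin chains together took 0.317% to 0.402% of all reads.

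**Figure D1:**
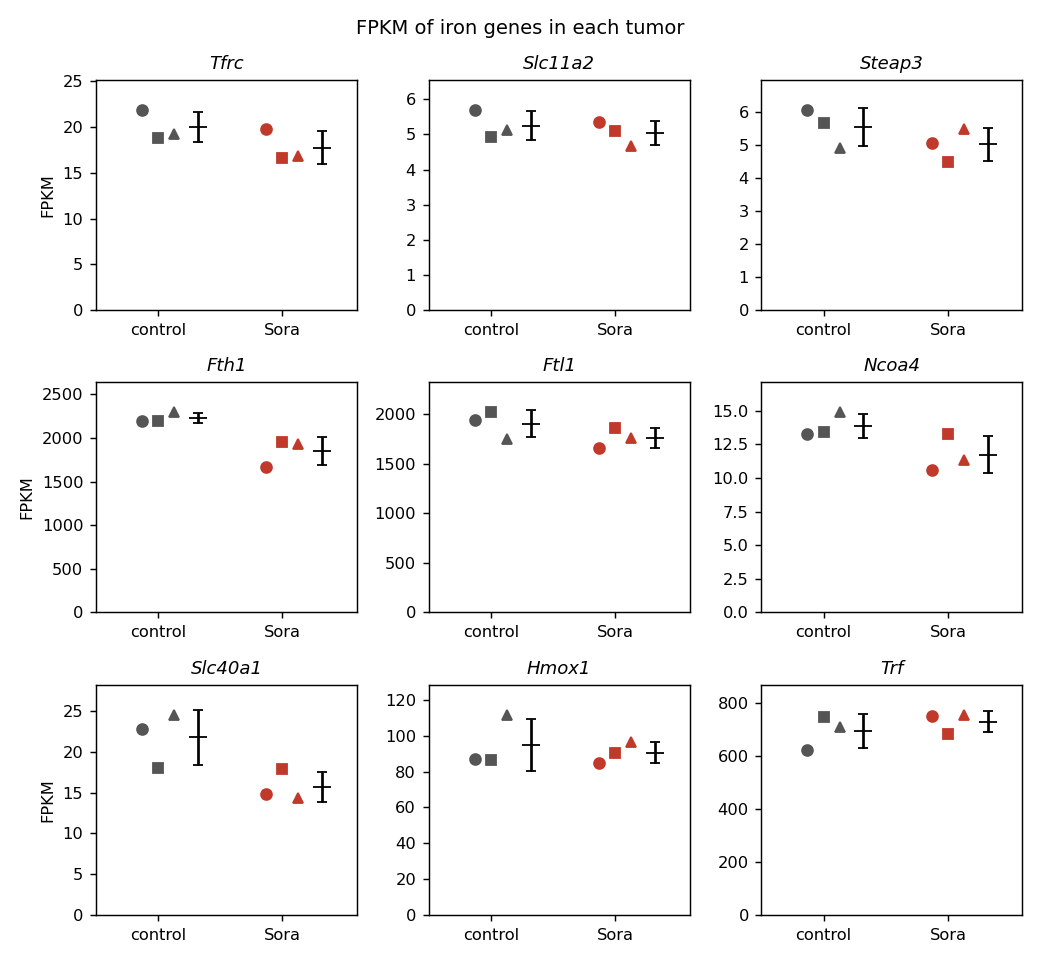
FPKM (vertical axes, from 0) of the 8 tested members and of Trf in each tumor, gray for control and red for Sora-treated; circles are control tumor 1 and Sora-treated tumor 2, squares tumors 3 and triangles tumors 4, and the bars are the mean ± SD of 3 tumors. The groups are apart for Slc40a1, by 18.05 against 17.83 FPKM at the nearest, and for Fth1, by 2192 against 1957 FPKM, and overlap in the other panels.

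Slc40a1 encodes ferroportin, the exporter that releases iron from cells. Its level was 22.8, 18.1 and 24.5 FPKM in control tumors 1, 3 and 4 and 14.8, 17.8 and 14.4 FPKM in Sora-treated tumors 2, 3 and 4. All Sora-treated tumors were below all controls, with little room between control tumor 3 and Sora-treated tumor 3. The mean fell by 28.1%, from 21.8 ± 3.36 to 15.7 ± 1.88 FPKM (SD, n = 3). The log2 fold change was -0.46 ± 0.11 (SE, edgeR's adjusted p = 0.047), and DESeq2 gave an adjusted p of 0.0024. The call was lost without any of 4 single tumors, namely control tumor 1 (adjusted p = 0.127), control tumor 4 (0.139), Sora-treated tumor 2 (0.167) or Sora-treated tumor 4 (0.209), each by edgeR. It held without control tumor 3 or Sora-treated tumor 3, at adjusted p of 0.0282 and 0.0168 (edgeR).

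The storage genes were the ferritin chains and Ncoa4. Fth1 encodes the ferritin heavy chain, which oxidizes iron for storage. It stood at 2193, 2192 and 2294 FPKM in the control tumors and at 1665, 1957 and 1927 FPKM in Sora-treated tumors 2, 3 and 4. The groups did not overlap, and Sora-treated tumor 2 was the lowest. The log2 fold change of -0.26 ± 0.09 (SE) had an adjusted p of 0.18 by edgeR and of 0.04 by DESeq2. Ftl1 encodes the light chain, which helps iron to form its mineral core. Its values were 1944, 2018 and 1750 FPKM in the control tumors and 1654, 1860 and 1757 FPKM in the Sora-treated tumors. They overlapped, with a log2 fold change of -0.11 ± 0.09 (SE, edgeR's adjusted p = 0.63).

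The ratio of heavy to light chain, taken within each tumor and so free of library scaling, was 1.13, 1.09 and 1.31 in control tumors 1, 3 and 4. It was 1.01, 1.05 and 1.1 in Sora-treated tumors 2, 3 and 4. Control tumor 4 was the highest, and the groups overlapped. On the log2 scale the mean ratio averaged 0.23 ± 0.14 over the controls and 0.07 ± 0.06 after Sora (SD, n = 3), a difference of -0.16 (exact permutation test, two-sided p = 0.2, adjusted over 2 ratios 0.4). Without control tumor 4 the difference was -0.075. With 3 tumors against 3 the smallest p of this test is 0.1. Ncoa4 encodes the receptor that carries ferritin to autophagosomes to free its iron. Its level was 13.24, 13.45 and 14.89 FPKM in the control tumors and 10.58, 13.26 and 11.32 FPKM in the Sora-treated tumors. Sora-treated tumor 3 lay just above the lowest control, so the groups overlapped, and the log2 fold change was -0.23 ± 0.09 (SE, edgeR's adjusted p = 0.23).

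The uptake genes did not pass the test. Tfrc encodes the transferrin receptor and was at 21.9, 18.8 and 19.2 FPKM in the control tumors and at 19.8, 16.6 and 16.8 FPKM in the Sora-treated tumors. Control tumor 1 and Sora-treated tumor 2 were the highest of their groups, and the groups overlapped, with a log2 fold change of -0.16 ± 0.09 (SE, edgeR's adjusted p = 0.38). Slc11a2 encodes DMT1, which moves iron out of the endosome. It had 4.92 to 5.7 FPKM in control and 4.67 to 5.36 FPKM in Sora-treated tumors, with a log2 fold change of -0.05 (adjusted p = 0.83, edgeR). Steap3 encodes the reductase that prepares endosomal iron for DMT1. It had 4.91 to 6.06 FPKM in control and 4.49 to 5.49 FPKM in Sora-treated tumors, with a log2 fold change of -0.13 (adjusted p = 0.64, edgeR).

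Tfrc and Fth1 carry iron responsive elements at opposite ends of their mRNA, and their ratio within a tumor was compared as well. Elements in the 5′ UTR act on translation, so the mRNA levels of Fth1, Ftl1 and Slc40a1 do not show that control. No conclusion on it is drawn from the mRNA values below. Tfrc stood at 0.998%, 0.858% and 0.838% of the Fth1 level in control tumors 1, 3 and 4. In Sora-treated tumors 2, 3 and 4 it stood at 1.19%, 0.849% and 0.873%. Only Sora-treated tumor 2 was above the control tumors. The log2 ratio averaged -6.8 ± 0.14 over the controls and -6.71 ± 0.27 after Sora (SD, n = 3), a difference of 0.1 (exact permutation test, two-sided p = 0.6, adjusted over 2 ratios 0.6). The sign of this difference turned without Sora-treated tumor 2, to -0.057. Of the members with an element in the 5′ UTR, the log2 fold changes were -0.26, -0.11 and -0.46 for Fth1, Ftl1 and Slc40a1, and of those with one in the 3′ UTR -0.16 and -0.05 for Tfrc and Slc11a2.

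Hmox1 encodes heme oxygenase 1, which opens the heme ring and frees its iron. It had 87.3, 86.2 and 111.8 FPKM in the control tumors and 84.9, 90.5 and 96.6 FPKM in the Sora-treated tumors. Control tumor 4 was the highest of the 6, and the groups overlapped, with a log2 fold change of -0.06 ± 0.11 (SE, edgeR's adjusted p = 0.84) that turned to 0.072 without control tumor 4. Hmox1 and the ferritin genes respond to the factors NRF2 and BACH1, which bind the antioxidant element TGACNNNGC. In promoters of RefSeq (GRCm38.p6, windows around the start sites), searched on both strands, it was present in 1 of 13 promoters of the 6 members that the table holds, an Ncoa4 promoter, and in 12.4% of 32851 promoters. The promoters of Hmox1, Slc40a1 and Slc11a2 were not searched here. Only short windows were searched, so elements farther from the start sites would be missed. The count therefore does not show which members lack the element.

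Hamp was near absent. Control tumor 1 had 2 reads, and each of the other 5 tumors had 0 reads, which allows a level of up to 0.204 to 0.237 FPKM (3 reads; counting error only). The related gene Hamp2 had 0 to 19 reads and was also under the filter, and reads could be split between these genes. No difference in hepcidin mRNA was detectable at this depth.

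The other genes of iron and heme handling were read from 7 lists, with 117 genes found and 115 tested. By edgeR 5 were up-regulated and 2 were down-regulated, or 6.09% of them against 3.29% of all genes, and their median log2 fold change was 0.0, with 58 genes above and 57 below 0. DESeq2 called 8 up and 6 down, where it called 7.46% of all genes. The counts of each list below stand against the same shares of all genes, 3.29% called by edgeR, 7.46% by DESeq2 and 17.2% at an unadjusted p under 0.05. Without Sora-treated tumor 4, edgeR called 0 of them (21 at an unadjusted p under 0.05, against 11.9% of all genes) and DESeq2 called 8.

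**Figure D2:**
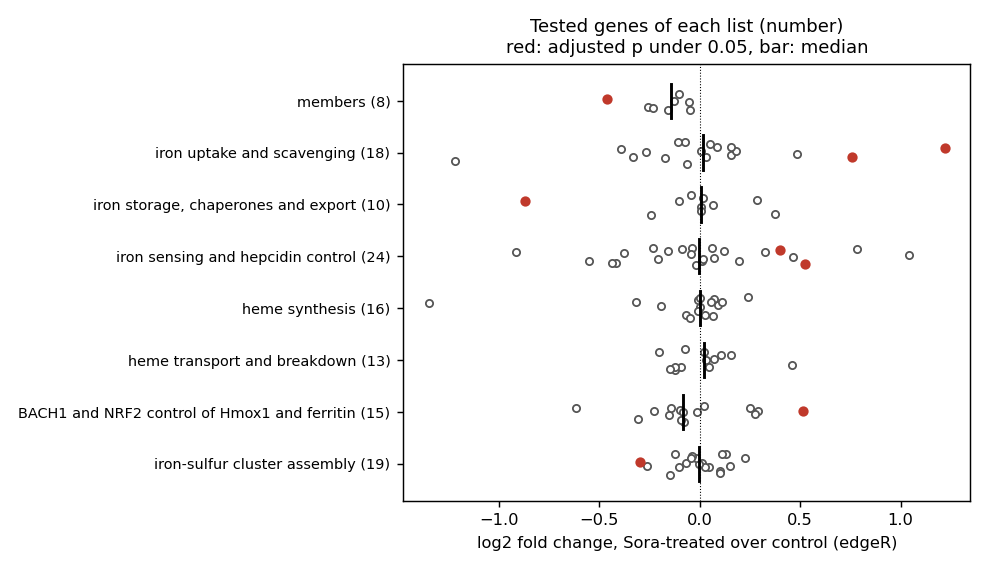
Log2 fold change (horizontal axis, Sora-treated over control) of every tested gene of the members and of the 7 lists, with the number of tested genes in parentheses, genes with an adjusted p under 0.05 in red and a bar at each median; the vertical scatter within a row has no meaning. The 8 members lie below 0 with a median of -0.15, while the 7 lists spread to both sides with medians between -0.09 and 0.02.

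Among 18 genes of iron uptake and scavenging, 2 rose and 0 fell by edgeR and by DESeq2. Lcn2, which encodes lipocalin 2, a binder of bacterial iron carriers, was at 2.51, 2.6 and 2.66 FPKM in the control tumors and at 6.9, 6.35 and 4.78 FPKM in the Sora-treated tumors. Every Sora-treated tumor was above every control, with a log2 fold change of 1.22 ± 0.22 (SE, edgeR's adjusted p = 0.019). Hp encodes haptoglobin, which binds free hemoglobin, and rose from 30.0 ± 6.76 to 50.3 ± 7.0 FPKM (SD, n = 3), a log2 fold change of 0.76 (adjusted p = 0.021, edgeR). The call of Lcn2 was lost without control tumor 1 or 4 or Sora-treated tumor 2 or 4, at adjusted p of 0.0542 to 0.0867, and that of Hp without control tumor 1 or Sora-treated tumor 2 or 4, at 0.0542 to 0.0699 (edgeR). Both are also known as acute-phase genes, and neutrophils express both. Trf, the transferrin gene, was among the 100 highest genes in every tumor, at 622.9, 747.0 and 711.4 FPKM in control and 750.3, 684.7 and 756.5 FPKM in Sora-treated tumors. The groups overlapped, with a log2 fold change of 0.08 (adjusted p = 0.74, edgeR) whose sign turned without control tumor 1, to -0.002.

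Among 10 genes of storage, iron chaperones and export, 0 rose and 1 fell by edgeR and by DESeq2. Cp encodes ceruloplasmin, the secreted oxidase that loads exported iron onto transferrin and so works with ferroportin. It was at 32.2, 28.8 and 44.7 FPKM in the control tumors and at 17.6, 21.6 and 18.1 FPKM in the Sora-treated tumors. Every Sora-treated tumor was below every control, with a log2 fold change of -0.87 ± 0.14 (SE, edgeR's adjusted p = 0.015). The call held in the fits without any of 4 tumors and was lost without Sora-treated tumor 2 or 4, at adjusted p of 0.051 and 0.096. Pcbp4, of the family of iron chaperones, had a log2 fold change of 0.28 (adjusted p = 0.11, edgeR).

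Among 24 genes of iron sensing and hepcidin control, edgeR called 2 higher and 0 lower (3.29% of all genes in either direction), with 8 at an unadjusted p under 0.05 (17.2% of all genes), and DESeq2 called 3 higher and 2 lower (7.46% of all genes). The 2 edgeR calls belong to the BMP pathway that controls Hamp in the liver. Acvr1, a BMP receptor, was at 8.0, 8.6 and 7.54 FPKM in the control tumors and at 10.4, 10.1 and 11.1 FPKM in the Sora-treated tumors, a log2 fold change of 0.4 (adjusted p = 0.042, edgeR). Its call was lost without control tumor 1 or 4 or Sora-treated tumor 2 or 4, at adjusted p of 0.113 to 0.192 (edgeR), and by DESeq2 without Sora-treated tumor 4 (adjusted p = 0.119). Smad7, an inhibitor of BMP and TGF-beta signals, rose from 19.3 ± 1.41 to 27.6 ± 2.28 FPKM (SD, n = 3), a log2 fold change of 0.52 (adjusted p = 0.019, edgeR). That call was lost without control tumor 1 or 4 or Sora-treated tumor 4, at adjusted p of 0.062 to 0.11 (edgeR). In both genes the groups did not overlap, and Hamp itself had almost no reads in the same tumors.

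In heme synthesis 0 of 16 genes passed, with 4 at an unadjusted p under 0.05 and 2 called by DESeq2. Alad, the enzyme of its second step, had a log2 fold change of -0.32 (adjusted p = 0.052 by edgeR and 0.0033 by DESeq2) with groups that did not overlap. Its adjusted p was under 0.05 in 8 of 18 other settings, but in 0 of the 6 edgeR fits that left out a tumor. Alas2, the erythroid form of the first enzyme, had 0.665 to 2.47 FPKM in control and 0.409 to 0.941 FPKM in Sora-treated tumors. These values overlapped, with a log2 fold change of -1.35 (adjusted p = 0.14 by edgeR and 0.023 by DESeq2). In heme transport and breakdown 0 of 13 genes passed, with 2 at an unadjusted p under 0.05 and 1 called by DESeq2. The heme transporters Slc48a1 and Flvcr2 had log2 fold changes of -0.2 and 0.46 (adjusted p = 0.26 and 0.12, edgeR).

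Among 15 genes around BACH1 and NRF2, edgeR called 1 higher and 0 lower, with 6 at an unadjusted p under 0.05, and DESeq2 called 2 higher and 0 lower. Slc7a11, the cystine transporter, was at 5.91, 6.03 and 6.17 FPKM in the control tumors and at 8.88, 7.41 and 9.35 FPKM in the Sora-treated tumors, a log2 fold change of 0.51 (adjusted p = 0.023, edgeR). The groups were apart, and the call was lost without control tumor 1 or 4 or Sora-treated tumor 2 or 4, at adjusted p of 0.0682 to 0.118 (edgeR). The hypoxia factor gene Epas1 of the same list had a log2 fold change of 0.28, with an adjusted p of 0.1 by edgeR and of 0.033 by DESeq2. Among 19 genes of iron-sulfur cluster assembly, 0 rose and 1 fell by edgeR and by DESeq2. Of these 19, 9 had a log2 fold change above 0 and 10 below 0.

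**Figure D3:**
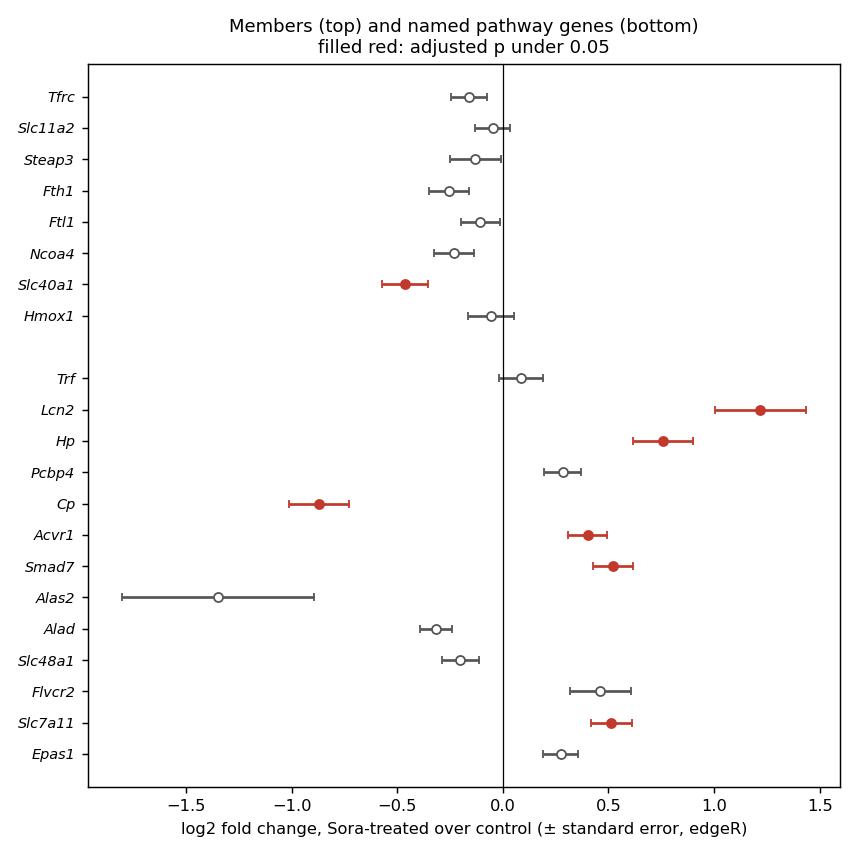
Log2 fold change (horizontal axis, Sora-treated over control) with its standard error for the 8 tested members above and 13 other iron and heme genes below, from edgeR on 3 against 3 tumors; filled red points have an adjusted p under 0.05. Slc40a1 at -0.46 and Cp at -0.87 lie to the left, and Lcn2 at 1.22 and Hp at 0.76 to the right.

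Markers of other cells moved with some of these values, and their part in the results was not tested. In bulk tumor, fewer cells of a type and less RNA per cell cannot be told apart. The marker counts in this and the next paragraph stand against shares of all genes, 3.29% called by edgeR and 7.46% by DESeq2. Without Sora-treated tumor 4 edgeR called 0.0306% and DESeq2 3.17% of all genes. In that edgeR fit 11.9% of all genes had an unadjusted p under 0.05. Macrophages, which recycle the iron of red blood cells, hold much ferroportin and ferritin. The summed level of 15 macrophage markers was 2175 to 2365 FPKM in control and 1721 to 2223 FPKM in Sora-treated tumors. Lyz2 was the highest of these 15 markers, with 995.6 ± 61.3 FPKM in control and 931.7 ± 169.8 FPKM in Sora-treated tumors (SD, n = 3). Of the 13 tested, 11 had a log2 fold change below 0, with a median of -0.24, and edgeR called 1 lower, Mertk (-0.45, adjusted p = 0.031). DESeq2 called 5 of the 13 lower, Mertk, Csf1r, C1qa, C1qb and C1qc. When Sora-treated tumor 4 was left out, edgeR called 0 macrophage markers (5 at an unadjusted p under 0.05) and DESeq2 called 1. The Kupffer cell markers Vsig4 and Clec4f were under 0.2 FPKM in every tumor.

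Red blood cell markers summed to 75 to 210 FPKM in control and 54.9 to 72.8 FPKM in Sora-treated tumors. Of 6 tested, 5 were below 0, and edgeR called 1 lower, Hba-a1 (-1.17, adjusted p = 0.031), and DESeq2 called 3 lower, while Slc4a1, Ahsp, Epb42 and Klf1 were under 0.2 FPKM in every tumor. When Sora-treated tumor 4 was left out, edgeR and DESeq2 each called 0 red blood cell markers (5 at an unadjusted p under 0.05 by edgeR). The value of Alas2 stands beside these, as it is in that list too. Neutrophil markers, which stand beside Lcn2 and Hp, summed to 61.4 to 88.2 FPKM in control and 109.1 to 182.2 FPKM in Sora-treated tumors, with 1 of 8 called higher by edgeR, S100a9, and 1 by DESeq2, Csf3r. Of these 8, 6 had a log2 fold change above 0 and 2 below, Ngp and Ltf. Without S100a8 and S100a9, a sum taken after the values were seen, the neutrophil markers had 29.4 to 44.3 FPKM in control and 33.4 to 62.8 FPKM in Sora-treated tumors, and the groups overlapped. Hepatoma and hepatocyte markers, which stand beside Cp and Trf, summed to 1758 to 2298 FPKM in control and 1521 to 1704 FPKM in Sora-treated tumors, with 2 of 9 called higher and 2 called lower by edgeR. Of these 9, 5 had a log2 fold change above 0, with a median of 0.13, and Alb took most of the sum, with 1555 ± 203 FPKM in control and 1058 ± 122 FPKM in Sora-treated tumors (SD, n = 3). For 4 other lists the sums were 73.8 to 86.5 and 57.8 to 82.0 FPKM for endothelial cells, 1979 to 2065 and 1510 to 1818 FPKM for fibroblasts, 114.6 to 152.7 and 127.4 to 180.8 FPKM for skeletal muscle, and 185.5 to 607.5 and 370.4 to 559.8 FPKM for skin, in control and Sora-treated tumors. Of these 4 lists edgeR called Postn of the fibroblasts, as lower, and DESeq2 called 4 fibroblast genes lower, Postn, Col1a1, Col1a2 and Col3a1. Without Sora-treated tumor 4, edgeR called 0, 0 and 1 markers of fibroblasts, neutrophils and hepatoma cells (4, 4 and 6 at an unadjusted p under 0.05), and DESeq2 called 4, 1 and 5.

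**Figure D4:**
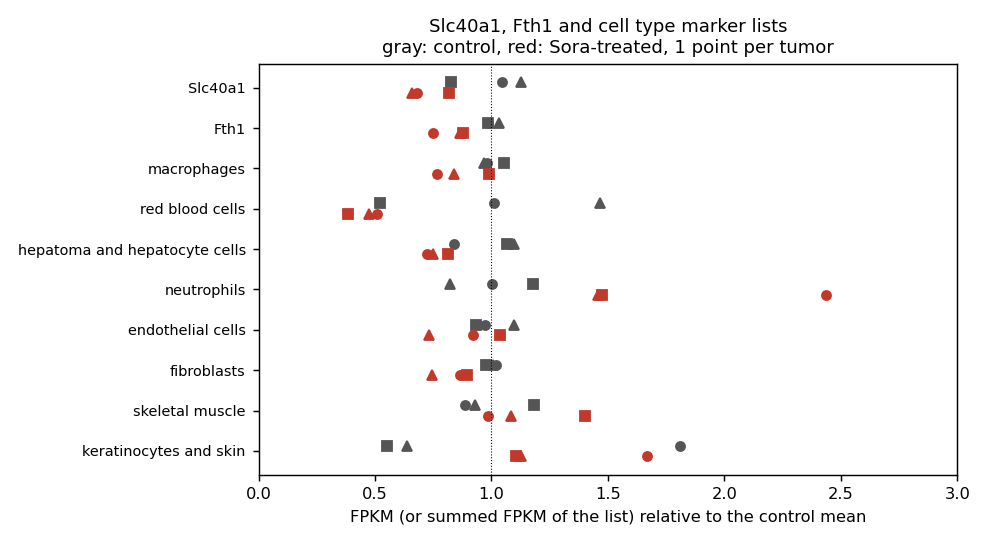
FPKM of Slc40a1 and Fth1 and summed FPKM of 8 cell type marker lists in each tumor, relative to the control mean (horizontal axis, control mean at 1), gray for control and red for Sora-treated, with circles for control tumor 1 and Sora-treated tumor 2, squares for tumors 3 and triangles for tumors 4. The red blood cell, hepatoma and fibroblast sums of the Sora-treated tumors are below all controls, as are Slc40a1 and Fth1, and the neutrophil sums, which hold S100a8 and S100a9, are above all controls. Most of the hepatoma sum is Alb, and 5 of the 9 tested hepatoma markers had a log2 fold change above 0.

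The call of Slc40a1 was close to the threshold. Over 18 other settings its log2 fold change stayed between -0.57 and -0.37, and its adjusted p was under 0.05 in 8 of them and ranged from 0.0024 to 0.39. Fth1 stayed between -0.31 and -0.18, with an adjusted p under 0.05 in 2 settings, both by DESeq2.

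**Figure D5:**
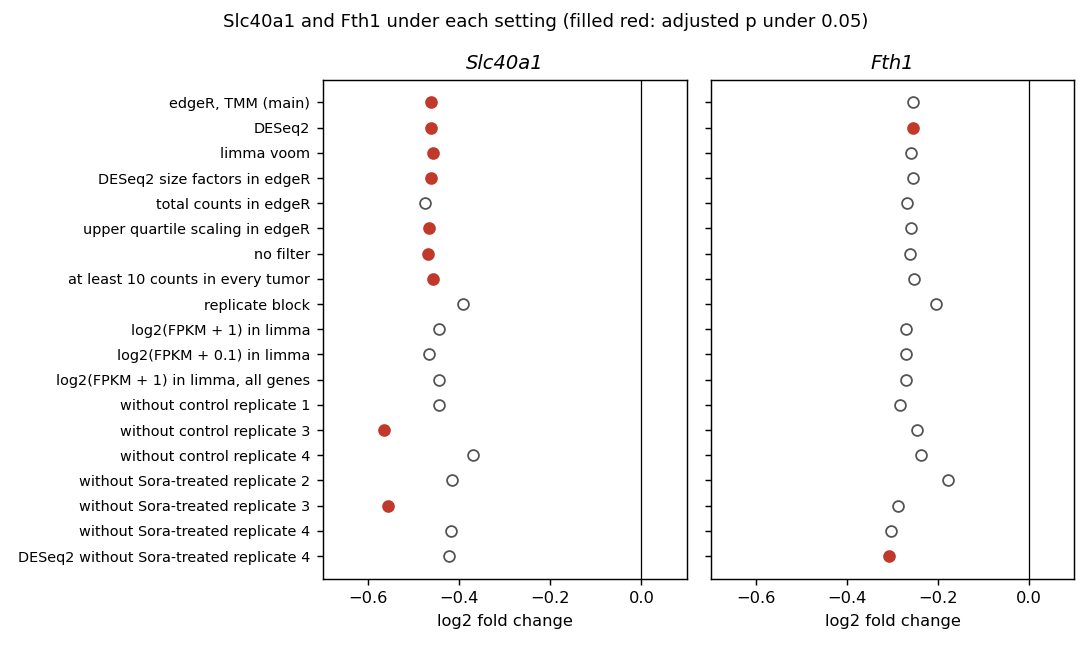
Log2 fold change (horizontal axes, Sora-treated over control) of Slc40a1 and Fth1 in edgeR with TMM scaling and in 18 other settings (vertical axis), with settings of an adjusted p under 0.05 filled in red. All values are below 0 in these settings, and 8 of the 18 call Slc40a1 and 2 call Fth1.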

How the data were processed

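RNA of 3 control and 3 Sora-treated tumors was analyzed. The authors deposited counts, whole reads per gene, for 5 tumors in the table used here, and FPKM for all 6. The study's methods name Bowtie2, GRCm38 and an expectation maximization algorithm for the FPKM, whereas the submitters' processing notes name fastp, HISAT2, HTSeq, DESeq2, R 3.2.0 and GRCm39; annotation and strand use are not given in the sources used here. The counts of Sora-treated tumor 4 were recovered from its FPKM (20951 genes, within 0.001 of a whole number; 342 genes with 512 reads had no known length and were left at 0), and the same steps returned the known counts of the other 5 tumors. The 16513 genes that reached 10 counts in 3 or more tumors were tested with edgeR 4.0.16 (TMM, glmQLFTest) in R 4.3.3, adjusted by Benjamini-Hochberg. Alternatives used DESeq2 1.42.0, limma 3.58.1, other scalings and filters, a replicate block, FPKM with pseudocounts of 1 or 0.1, and leaving out each tumor. DESeq2 without Sora-treated tumor 4 was chosen after seeing the data. Scripts were tested on simulated data. The members and lists were chosen with earlier results of these data known. Named genes were all members, Trf, each pathway gene with an adjusted p under 0.05, the 2 smallest p per list, genes of at least 1 FPKM with groups apart by over 1.5-fold, and marker genes beside a result. Some genes that this rule names are not reported here. Intervals and limits from reads cover counting error only.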

Additional observations from a re-analysis of the deposited data

How the results depend on the processing

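The number of members called was 1 and became 2 with DESeq2 and 0 with total counts, with the replicate block, and with limma on log2(FPKM + 1), log2(FPKM + 0.1) or log2(FPKM + 1) of all genes. It was 0 to 1 when single tumors were left out. The number of pathway genes called was 7 and became 14 with DESeq2, 13 without a filter, 4 on log2(FPKM + 0.1), 0 on log2(FPKM + 1) of all genes, 1 with the replicate block and 0 to 11 when single tumors were left out, 0 being the fit that lacks Sora-treated tumor 4 and 11 the one that lacks Sora-treated tumor 3. DESeq2 without Sora-treated tumor 4, chosen after seeing the data, called 1 member (Fth1, not Slc40a1) and 8 pathway genes. The labels do not say whether the replicate numbers pair the tumors. Deviations of same-numbered tumors from their group means correlated at -0.03 (tumors 3) and -0.07 (tumors 4). Correlations over all pairs of a control and a Sora-treated tumor ran from -0.157 to 0.259. With so few tumors these values cannot decide whether the numbers pair them. Control tumor 1 and Sora-treated tumor 2 have no partner of the same number, so the block takes its differences from the other 4 tumors alone. The block moved the log2 fold change of Slc40a1 to -0.39 (adjusted p = 0.39, edgeR), that of Trf to -0.016, the difference in the Tfrc to Fth1 ratio to 0.02 and that in the Fth1 to Ftl1 ratio to -0.15. When single tumors were left out, the ratio differences ranged from -0.057 (without Sora-treated tumor 2) to 0.186 and from -0.21 to -0.075 (without control tumor 4). Other signs turned too: leaving out single tumors gave -0.128 to 0.072 for Hmox1 (0.072 without control tumor 4) and -0.002 to 0.162 for Trf (-0.002 without control tumor 1). The cause of these changes was not tested, beyond the smaller number of tumors that the block and the left-out fits compare. Small differences between 3 tumors and 3 limit every call here, and genes with few reads, such as Hamp, could not be compared.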

Other observations

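Some genes of hepcidin control that were chosen after their values were seen had groups that did not overlap without passing edgeR's test. Of the 24 tested genes of that list, 6 had FPKM without overlap that were lower after Sora and 6 that were higher. Over all genes tested, 21.7% had no overlap in either direction. Not all of the genes without overlap are given here. Tmprss6, the protease that lowers hepcidin signaling, was at 5.22, 7.13 and 6.88 FPKM in the control tumors and at 4.27, 4.2 and 4.57 FPKM in the Sora-treated tumors, with a log2 fold change of -0.55 (adjusted p = 0.053, edgeR). Hfe, the hemochromatosis gene, had a log2 fold change of -0.42 and Id1, a target of BMP signals, of 0.32 (adjusted p = 0.1 and 0.099, edgeR). DESeq2 gave Tmprss6, Hfe and Id1 adjusted p of 0.0068, 0.036 and 0.033.

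The hemoglobin genes were also read as a group after their values were seen. Hbb-bs was at 72.5, 39.3 and 114.2 FPKM in the control tumors and at 37.5, 29.5 and 35.9 FPKM in the Sora-treated tumors, with a log2 fold change of -1.12 (adjusted p = 0.058, edgeR). Hba-a2 and Hbb-bt had -1.27 and -1.04 (adjusted p = 0.094 and 0.14, edgeR) and their groups overlapped. Hba-a1 and Hba-a2 are near-identical copies, so reads could be split between them.

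Over the 6 tumors, the genes whose log2(CPM + 1) was most like that of Slc40a1 among 14111 genes were Rgs3, AI661453 and Pigl, with Pearson correlations of 0.998, 0.998 and 0.996. For Fth1 they were 2310030G06Rik, Plekhf2 and B2m, with 0.993, 0.991 and 0.987. These are the highest of many correlations over 6 points that share libraries and groups, and they are given as a description.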
